A study of Saccharomyces cerevisiae with 58 samples.

Results

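The 10 genes described here encode parts of the yeast DNA replication machinery: POL1, POL12, PRI1 and PRI2 of the DNA polymerase alpha-primase complex, POL2 of DNA polymerase epsilon, POL30 (the sliding clamp PCNA), CDC9 (DNA ligase), RFA1 and RFA2 of the single-strand binding complex RPA, and the histone chaperone gene ASF1. They were taken by name, as the probe sets annotated to these symbols, and each has 1 probe set among the 5716 S. cerevisiae probe sets tested. In the annotation they are YNL102W (POL1), YBL035C (POL12), YIR008C (PRI1), YKL045W (PRI2), YNL262W (POL2), YBR088C (POL30), YDL164C (CDC9), YAR007C (RFA1), YNL312W (RFA2) and YJL115W (ASF1). Their levels were read on Affymetrix Yeast 2.0 arrays in a wild type and in an rpb6 mutant. In the mutant a plasmid-borne rpb6 allele, with arginine in place of a glutamine, stands in for the disrupted chromosomal gene of this RNA polymerase II subunit, and the polymerase recruits the subunits Rpb4 and Rpb7 poorly. Both strains are MATalpha, share the alleles ura3-52, his3Δ200, lys2Δ201 and ade2, and were grown in rich medium at 30 degrees to mid log phase. The mutant grows more slowly than the wild type.

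Each strain gave 4 courses. Cells in 0.3 mM H2O2 were sampled before stress and after 5, 10, 15, 25, 35 and 45 min, and cells in 0.1% MMS at 0, 20, 40, 80, 100, 120, 140 and 180 min. For mRNA decay, transcription was blocked with 1,10-phenanthroline and cells were taken at once and 5, 10, 20, 30, 40 and 50 min later, either without stress (the reference course) or with H2O2 added 7 min before the drug. Every course is 1 culture with 1 array per time point, 58 arrays in all, so only the untreated state has replicates: the first arrays of the reference decay course and of both stress courses, 3 per strain. The error of a course is its scatter about a fitted curve, so treatment and culture cannot be told apart, and p-values measure only that scatter.

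In S phase, polymerase alpha-primase lays down a short RNA-DNA primer, polymerase epsilon extends the leading strand, PCNA holds the polymerases on the template, ligase seals the fragments of the lagging strand, and RPA coats single-stranded DNA. Asf1 hands histones H3 and H4 to the new DNA. Many of these genes carry MCB elements in their promoters and are transcribed together at the transition from G1 to S by the factor MBF. RPA subunit genes are also known targets of the DNA damage response. The cultures were in mid log phase and no synchronisation is described, so whether the 10 transcripts peaked at G1/S was not tested.

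All 10 transcripts were well above background. Their mean log2 levels over the 58 arrays lay between 9.29 (POL12) and 12.47 (POL30), against 5.11 as the 95th percentile of the chip's 1747 S. pombe probe sets, which carry no S. cerevisiae target. The labelled mating type was checked by marker genes: the alpha-specific genes MF(ALPHA)1, MF(ALPHA)2 and STE3 had mean log2 levels of 14.04, 13.59 and 12.41 in the untreated wild type and 13.89, 12.18 and 11.55 in the mutant, while the a-specific genes of the list lay between 6.38 and 8.40. In 1 mutant array MF(ALPHA)2 was at 10.52. RPO26, the gene of Rpb6, was between 13.46 and 13.77 in wild type cells and between 12.60 and 13.32 in the mutant, and a probe set for it cannot tell the mutant allele from the normal one. Since both strains share the mating type, the mating type genes do not test which strain an array came from. The untreated RPO26 levels of the strains did not overlap, but the gene did not pass the limma test between untreated strains. The 3 array sets (14 H2O2, 16 MMS and 28 decay arrays) were normalized apart, so levels are compared only within a set.

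Before stress, none of the 10 genes differed between the strains by the limma test with array set as a block (adjusted p under 0.05, Benjamini-Hochberg over 5716 probe sets), where 1.91% of all probe sets passed. Without adjustment 3 had p under 0.05. POL12, the second subunit of polymerase alpha, had log2 levels of 9.76, 10.14 and 9.92 in wild type cells and 9.38, 9.74 and 9.58 in the mutant, lower in the mutant in 3 of 3 sets by a mean of 0.37 ± 0.035 (SD, n = 3; limma adjusted p = 0.064). POL1, the catalytic subunit, differed by -0.27 ± 0.11 (SD, n = 3; limma adjusted p = 0.12) and POL30 by -0.18 ± 0.047 (SD, n = 3; adjusted p = 0.181), also lower in 3 of 3 sets. The median mutant minus wild type difference was 0.03 over the 10 genes and -0.02 over all probe sets. RMA gives the arrays of a set a common distribution, so these differences are relative to the average mRNA. A change shared by all transcripts would not show. With spiked-in RNA the paper reports a general reduction of mRNA levels in the mutant.

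In H2O2 the transcripts of the polymerases, the clamp and the ligase fell in the wild type, while both RPA transcripts rose. POL12 fell to a fitted change of -0.77 ± 0.096 on the log2 scale (SE), 1.70-fold below 0 min, POL1 to -0.69 ± 0.083, POL30 to -0.58 ± 0.092, POL2 to -0.57 ± 0.068 and CDC9 to -0.46 ± 0.068, with the lowest fitted values at 15 or 25 min (limma spline test, adjusted p between 0.00117 and 0.0031). RFA1 rose by 0.47 ± 0.096 and RFA2 by 0.41 ± 0.074 (adjusted p = 0.00937 and 0.00716). Thus 7 of the 10 passed, beside 56.3% of all probe sets (28.5% higher, 27.7% lower), which is the background for this count. The median of the 10 extreme changes was -0.33, against -0.07 over all probe sets. PRI1, the catalytic subunit of primase (-0.13 ± 0.076, adjusted p = 0.41), PRI2, its large subunit (-0.20 ± 0.078, adjusted p = 0.129), and ASF1 (-0.06 ± 0.097, adjusted p = 0.904) did not pass.

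The course of POL1 in the wild type read 10.62, 10.47, 10.16, 9.99, 9.94, 10.17 and 10.27 (log2 level, 0 to 45 min), a fall that reached its lowest array at 25 min and was partly regained. POL12 read 9.76, 9.64, 9.21, 9.02, 9.06, 9.29 and 9.53, with the lowest array at 15 min. By 45 min POL1 was still 0.36 below its start, POL2 0.37, POL12 0.23, POL30 0.16 and CDC9 0.13 on the log2 scale. The transcripts of the alpha-primase complex did not move together here: every stressed array of POL1 and POL12 was below 0 min, by up to 0.69 and 0.74, while PRI1 and PRI2 stayed within 0.19 and 0.21 of their start.

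RFA1 in the wild type read 10.56, 10.45, 10.68, 10.80, 10.89, 10.97 and 10.53, and RFA2 read 11.34, 11.30, 11.44, 11.64, 11.71, 11.61 and 11.44. Both dipped at 5 min, were highest at 25 or 35 min and lay at -0.03 and 0.10 from their start at 45 min. Of the limits, RFA1 no longer passed when the wild type course was fitted alone (adjusted p = 0.0542) and RFA2 no longer passed without the 25 min arrays (adjusted p = 0.051). Of the S. pombe probe sets, 8.64% had an unadjusted p no higher than the largest of any called probe set in this limma test.

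**Figure D1:**
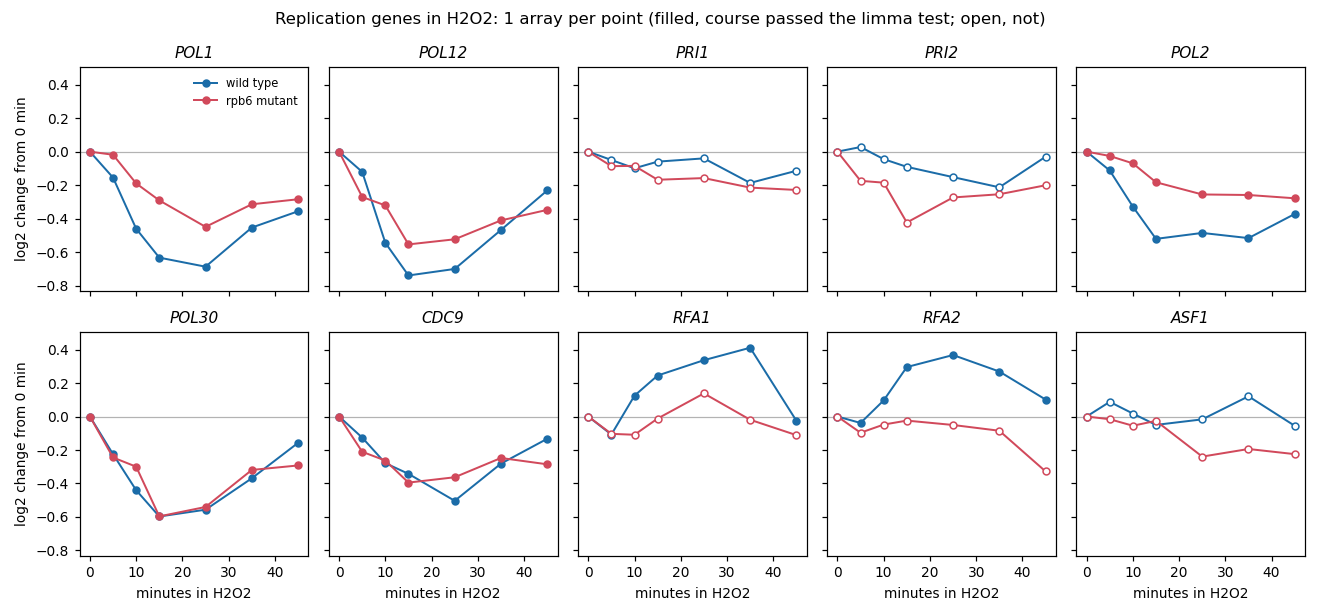
Log2 change from 0 min of each of the 10 transcripts (vertical axis) against minutes in 0.3 mM H2O2 (horizontal axis), with the wild type in blue and the rpb6 mutant in red, 1 array per point. Filled courses passed the limma spline test: POL1, POL12, POL2, POL30 and CDC9 fell in both strains, and RFA1 and RFA2 rose in the wild type, where RFA1 reached 0.41 at 35 min.

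In the mutant the same 5 genes fell in H2O2: POL30 to -0.52 ± 0.092, POL12 to -0.51 ± 0.096, POL1 to -0.44 ± 0.083, CDC9 to -0.36 ± 0.073 and POL2 to -0.29 ± 0.062 (limma adjusted p between 0.0134 and 0.0346), where 22.7% of all probe sets passed and 10.2% were lower. POL30 read 12.81, 12.59, 12.37, 12.22, 12.26, 12.44 and 12.66 in wild type cells and 12.68, 12.43, 12.38, 12.08, 12.14, 12.36 and 12.38 in the mutant, nearly parallel up to 35 min. RFA1 in the mutant read 10.63, 10.52, 10.52, 10.62, 10.77, 10.61 and 10.52 and did not pass (adjusted p = 0.315), nor did RFA2, which read 11.45, 11.35, 11.40, 11.42, 11.40, 11.36 and 11.12 (adjusted p = 0.0681). The mutant calls depended on the arrays used. By limma 0 of the 10 passed without the 15 or the 25 min arrays (6 and 7 at an unadjusted p under 0.05). The count was 1 without those of 10 min, 3 without those of 35 or 45 min and 4 without those of 5 min. Without those of 0 min it was 2, POL1 and RFA2. In the wild type 6 or 7 passed each time. Over all probe sets the mutant count also fell, from 1298 to 743 and 657 without the 15 and the 25 min arrays. It was 350 without those of 10 min, and 883 and 785 without those of 35 and 45 min. It rose to 1368 without those of 5 min and to 1663 without those of 0 min, while fewer of the 10 passed. Without the 0 min arrays changes are taken from 5 min, and the sizes in the mutant were then -0.28 for POL12, -0.19 for CDC9 and -0.34 for POL30, and -0.37 for POL30 in the wild type.

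The difference between the strains was tested as an interaction of strain and spline. None of the 10 passed by limma, with 2 at an unadjusted p under 0.05, and 1.24% of all probe sets passed. The largest difference among the 10 was that of RFA2, lower in the mutant by 0.44 ± 0.095 at 35 min (adjusted p = 0.129), and the other gene with an unadjusted p under 0.05 was POL2, whose change was less negative in the mutant by 0.32 ± 0.1 at 15 min (adjusted p = 0.255). RFA1 differed by -0.35 ± 0.14 at 25 min (adjusted p = 0.409). So the rise of the RPA transcripts in the wild type is not shown to differ from the courses of the mutant. The first arrays of the H2O2 decay courses, taken 7 min after H2O2 in other cultures, gave 1 more reading without a test. Against the reference 0 min array of the same strain, POL12 was at -0.45 in wild type cells and -0.32 in the mutant, POL1 at -0.31 and -0.18, POL30 at -0.22 and -0.26, and RFA1 at 0.12 and -0.15.

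Other genes of the pathway were read from lists. The background for their counts in H2O2 is 28.5% of all probe sets higher and 27.7% lower in the wild type. In the mutant it is 12.5% higher and 10.2% lower. Of 22 further replisome genes, 9 fell and 2 rose in the wild type in H2O2 (median -0.28), among them DPB2, a subunit of polymerase epsilon, which fell by 0.83. Of 26 genes of origin licensing and firing 16 fell and 2 rose (median -0.35), with the licensing factor gene CDC6 at -1.07. Of 14 regulators of G1/S 10 fell and 0 rose (median -0.62), led by the G1 cyclin genes CLN2 (-1.15) and CLN1 (-1.07). Of 10 genes of deoxynucleotide supply 5 fell, among them RNR1 of ribonucleotide reductase (-0.73), and 3 rose, with RNR3, its damage-inducible paralog, at 1.06. Of 15 chromatin assembly genes 8 fell and 1 rose, and of 11 checkpoint genes 3 fell and 2 rose. In the mutant 2 of the 22 replisome genes fell and 0 rose, 5 of the 26 origin genes fell and 2 rose, with the origin recognition gene ORC5 at 0.58, and 4 of the 14 G1/S regulators fell and 0 rose. The falls of replisome genes in the mutant and of checkpoint genes in the wild type lay near the background. So did the rises in deoxynucleotide supply in the wild type.

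Markers of other cell cycle phases moved too, against the same background shares. In the wild type 7 of 7 G2/M genes and 6 of 7 M/G1 genes fell in H2O2, and the mean change of the list was lowest at 15 min, at -0.88 and -0.62. Of 7 histone genes, whose mRNAs belong to S phase, 6 fell (mean change -0.37 at 15 min). In the mutant 4 of 7 G2/M genes fell and 2 rose, 5 of 7 M/G1 genes fell, and no histone gene passed (limma; 0 of 7 also at an unadjusted p under 0.05). The part of a shift of the cell cycle in the changes of the 10 genes was not tested. In these bulk cultures fewer cells in S phase and less mRNA per S phase cell cannot be told apart.

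In MMS, which methylates DNA, RFA1, RFA2 and PRI2 rose most of the 10 and the catalytic subunits POL1 and POL2 fell. By the spline test 7 genes rose and 3 fell in each strain, the same 7 and the same 3, while 87.3% of all probe sets passed in the wild type (46.4% higher, 40.9% lower) and 83.9% in the mutant (45.2% higher, 38.6% lower). A pass was thus common on these arrays, and the genes are described by the size of their changes. S. pombe probe sets had an unadjusted p no higher than the largest of any called probe set in 16.5% and 20.0% of cases. The median extreme change of the 10 was 0.63 in wild type cells and 0.61 in the mutant, against 0.23 and 0.24 over all probe sets.

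RFA1 read 11.28, 11.83, 12.34, 12.80, 12.93, 13.06, 13.11 and 13.14 in the wild type (0 to 180 min) and 11.20, 11.92, 12.44, 12.96, 12.98, 13.04, 13.10 and 13.11 in the mutant. It was higher at every later array, without a return, and the fitted change at 180 min was 1.86 ± 0.079 in the wild type, 3.63-fold, and 1.91 ± 0.079 in the mutant, 3.75-fold (limma adjusted p = 8.84e-09 and 8.8e-09). RFA2, the middle subunit of RPA, read 11.80, 12.33, 12.78, 12.70, 12.58, 12.57, 12.65 and 12.80 in wild type cells and 11.80, 12.35, 12.89, 13.12, 13.16, 13.16, 13.20 and 13.29 in the mutant. The strains ran together to 40 min, after which the wild type levelled off and the mutant went on up, to fitted changes at 180 min of 1.01 ± 0.1 and 1.51 ± 0.1, or 2.02-fold and 2.84-fold.

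This separation was the only strain difference among the 10 in MMS: 0.63 ± 0.1 higher in the mutant at 140 min (limma interaction, adjusted p = 0.0345), where 3.32% of all probe sets passed (1.82% higher, 1.5% lower). With any 1 later time point left out in both strains the difference stayed between 0.59 and 0.64, but among these alternatives it passed only without the 180 min arrays (adjusted p = 0.0266), and it did not pass with a spline of 2 degrees of freedom (adjusted p = 0.691, the highest of 10 alternatives). The other 9 differences were between -0.42 (POL12) and 0.37 (PRI1), with 1 of them, POL12, at an unadjusted p under 0.05.

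In the alpha-primase complex the primase subunits and POL12 rose while POL1 fell. PRI2 read 11.11, 11.23, 11.67, 12.05, 12.14, 12.09, 12.08 and 12.09 in wild type cells and 11.02, 11.21, 11.70, 12.04, 12.14, 12.10, 12.14 and 12.05 in the mutant, a plateau from 80 or 100 min on, with fitted changes of 1.09 ± 0.086 and 1.18 ± 0.089. PRI1 rose by 0.40 ± 0.11 and 0.69 ± 0.11 at 80 min, and POL12 by 0.68 ± 0.084 at 120 min in wild type cells and 0.32 ± 0.089 at 100 min in the mutant. These rises did not last in full. At 180 min PRI1 stood at 0.04 in wild type cells and 0.39 in the mutant, and POL12 at 0.27 and -0.067. POL1 read 10.95, 10.71, 10.76, 10.84, 10.84, 10.56, 10.45 and 10.19 in wild type cells and 10.80, 11.09, 10.75, 10.76, 10.74, 10.64, 10.29 and 10.01 in the mutant, within 0.29 of its start up to 100 min and then lower, with fitted changes of -0.72 ± 0.17 and -0.90 ± 0.17 at 180 min.

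POL2 read 10.35, 10.35, 10.28, 10.14, 9.98, 9.64, 9.42 and 9.24 in wild type cells and 10.25, 10.25, 10.07, 9.94, 9.71, 9.47, 9.26 and 8.88 in the mutant. It declined from 40 min on, to -1.11 ± 0.11 (2.16-fold lower) and -1.38 ± 0.11 (2.61-fold lower) at 180 min. POL30 and CDC9 rose and then came part of the way back. POL30 reached 0.86 at 40 min in wild type cells and 0.84 at 80 min in the mutant and stood at 0.31 and 0.36 at 180 min, and CDC9 reached 0.62 and 0.60 at 100 min and stood at 0.33 and 0.21. ASF1 fell slightly, by 0.33 ± 0.094 in wild type cells and 0.32 ± 0.08 in the mutant (adjusted p = 0.018 and 0.0195). In the mutant only the call of ASF1 was lost in an alternative, without the 100 min arrays. In the wild type the calls of PRI1, POL30, POL1 and ASF1 depended on 1 setting or another: PRI1 was lost without the 80, 100 or 180 min arrays, POL30 without those of 40 min, POL1 without those of 180 min, and ASF1 without those of 40, 80 or 100 min or when the wild type was fitted alone, while RFA1, RFA2, PRI2, POL12, POL2 and CDC9 passed in all alternatives. With 2 degrees of freedom PRI1, POL30 and ASF1 were lost, and the fitted changes were smaller by over 1.5 times: 0.25 for PRI1, 0.48 for POL30, -0.21 for ASF1 and 0.66 for RFA2 in the wild type and 0.55 for POL30 in the mutant. POL1 in the mutant was at -0.56 without the 180 min arrays.

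**Figure D2:**
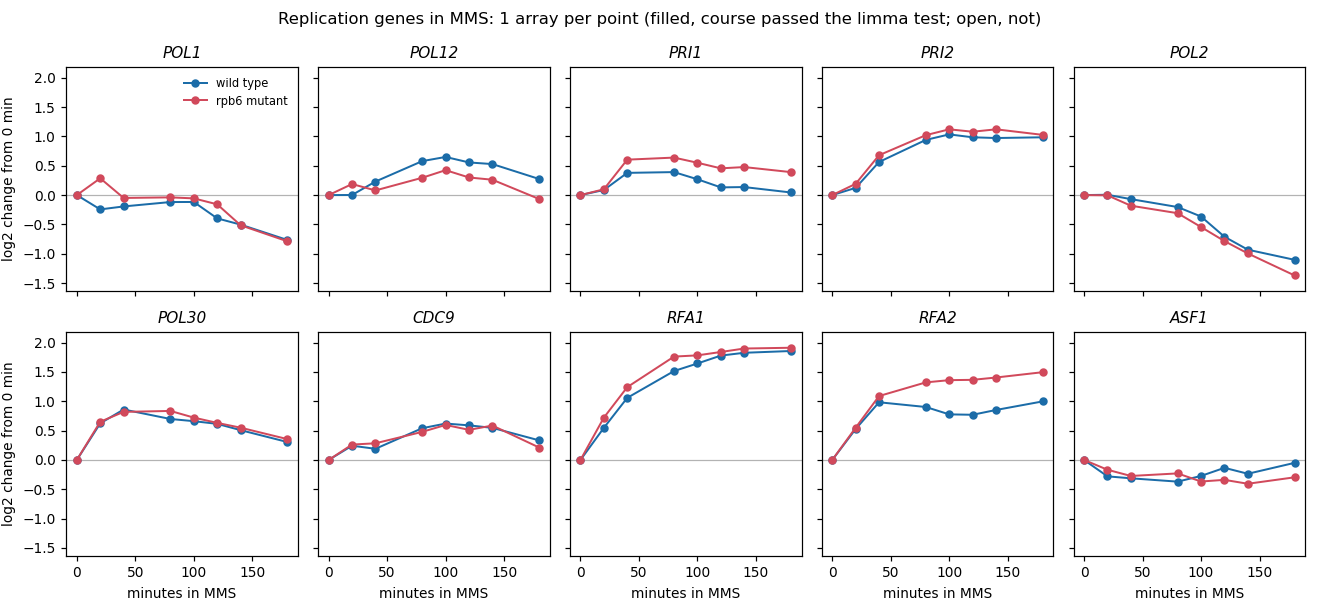
Log2 change from 0 min of each of the 10 transcripts (vertical axis) against minutes in 0.1% MMS (horizontal axis), wild type in blue and rpb6 mutant in red, 1 array per point. All courses are filled, since each passed the limma spline test; RFA1 rose to 1.86 and 1.91, RFA2 separated between the strains after 40 min, and POL2 declined to -1.10 and -1.37.

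Among the listed genes in MMS the replisome list was divided in the wild type (8 of 22 rose, 9 fell, median 0.08) while in the mutant 13 rose and 6 fell (median 0.37), but 0 of the 22 passed the test of the strain difference (limma; 5 at an unadjusted p under 0.05). The clamp unloader gene ELG1 fell by 1.40 in wild type cells and by 1.04 in the mutant, and DPB3 of polymerase epsilon rose by 0.88 in the wild type. The origin list was divided in both strains (11 rose and 12 fell, and 11 rose and 10 fell, of 26), with the helicase gene MCM7 at -2.10 and -2.16. Of the 14 G1/S regulators 12 fell in each strain, with CLN2 at -3.49 and -3.30. Of 15 chromatin assembly genes 8 rose and 5 fell in each strain. The background for counts in MMS is 46.4% of all probe sets higher and 40.9% lower in the wild type. In the mutant it is 45.2% higher and 38.6% lower. The counts of chromatin assembly genes, of origin genes and of replisome genes in the wild type lay near it. Of 11 checkpoint genes 8 rose and 2 fell in each strain, with HUG1 at 3.13 and 3.11. RNR1 fell by 2.31 and 2.08 while RNR3 rose by 2.65 and 2.69. Of 7 histone genes 5 fell and 2 rose in the wild type, and 5 fell and 1 rose in the mutant. All 7 G2/M and all 7 M/G1 markers fell in both strains, to a mean change at 180 min of -2.44 and -3.00 in wild type cells and -2.16 and -2.43 in the mutant. The part of cell cycle arrest in the values of the 10 genes was not tested.

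In the decay courses 9 of the 10 transcripts were shorter-lived in the wild type without stress than the median gene. Half-lives were fitted here as an exponential with a free start to the authors' scaled ratios, in which each time point is multiplied by a factor that imposes 1 common mean decay on all courses, so half-lives are relative to that mean. All 10 transcripts reached R2 above 0.9 in all 4 courses. In the wild type reference course POL12 had the shortest half-life, 10.1 ± 0.23 min (jackknife SE over time points), followed by POL30 (12.4 ± 1.3), POL1 (13.3 ± 1.3), CDC9 (14.5 ± 1.6) and POL2 (17.5 ± 3.1), each within the errors of its neighbour except POL12. ASF1 (19.4 ± 0.88), RFA2 (19.9 ± 0.64) and PRI2 (20.5 ± 0.64) did not differ beyond their errors, and PRI1 (22.8 ± 1.3) and RFA1 (26.3 ± 1.8) were the longest. The median was 18.5 min over the 10 genes and 23.3 min over all fitted genes. PRI1, counted above as shorter-lived, lay below the latter by less than its SE. Within polymerase alpha-primase the polymerase subunits POL1 and POL12 were shorter-lived than the primase subunits PRI1 and PRI2.

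Without stress 7 of these transcripts were lost more slowly in the mutant and RFA1 was lost faster. The test was a limma contrast of the slopes of log2 level on time over the 28 decay arrays, in which RMA had removed the mean decay, so that a positive difference means slower loss relative to the average mRNA. It passed for 36.6% of all probe sets (17.4% higher, 19.1% lower). POL1 changed most, by 0.0284 ± 0.0057 log2 per min (SE, adjusted p = 0.000505), and its half-life was 22.8 ± 4 min in the mutant. ASF1 (0.0147 ± 0.0023, adjusted p = 3.29e-05) went to 27.0 ± 2.1 min and PRI2 (0.0073 ± 0.0017, adjusted p = 0.00223) to 25.2 ± 1.1 min. POL2, POL30, POL12 and CDC9 had differences between 0.0126 and 0.0174. RFA1 had a slope of 0.0011 in the wild type, close to the rate of the average mRNA, and -0.0091 in the mutant (difference -0.0102 ± 0.0023, adjusted p = 0.00164), with half-lives of 26.3 and 22.9 min. PRI1 and RFA2 did not pass. Of the 22 other replisome genes 7 were lost more slowly in the mutant and 0 faster.

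The mutant reference course holds 2 arrays out of order. Projected on the change between the ends of the course over all tested probe sets, the mutant reference array of 10 min lay 31.8% of the way and that of 20 min 9.01% of the way, whereas the wild type arrays lay at 26.6% and 51.0%. Exchanged or left out, these 2 arrays changed no call among the 10, which stayed at 7 higher and 1 lower. Leaving out other time points moved the count more: without the 0, 10 or 40 min arrays of all courses 4 genes were higher and 1 lower. Of all probe sets 34.1%, 31.1% and 24.1% then passed. Without those of 5 min 3 were higher and 1 lower (25.9% of all passed). RFA1 did not pass without the 50 min arrays or with 0 to 30 min only, where RFA2 passed as higher. With 0 to 30 min only, the differences were 0.0433 for POL1, 0.0469 for POL12, 0.0351 for POL30, 0.0332 for POL2, 0.0286 for CDC9, 0.0122 for PRI2 and -0.0013 for RFA1. POL1, PRI2 and ASF1 passed under all 12 alternatives.

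**Figure D3:**
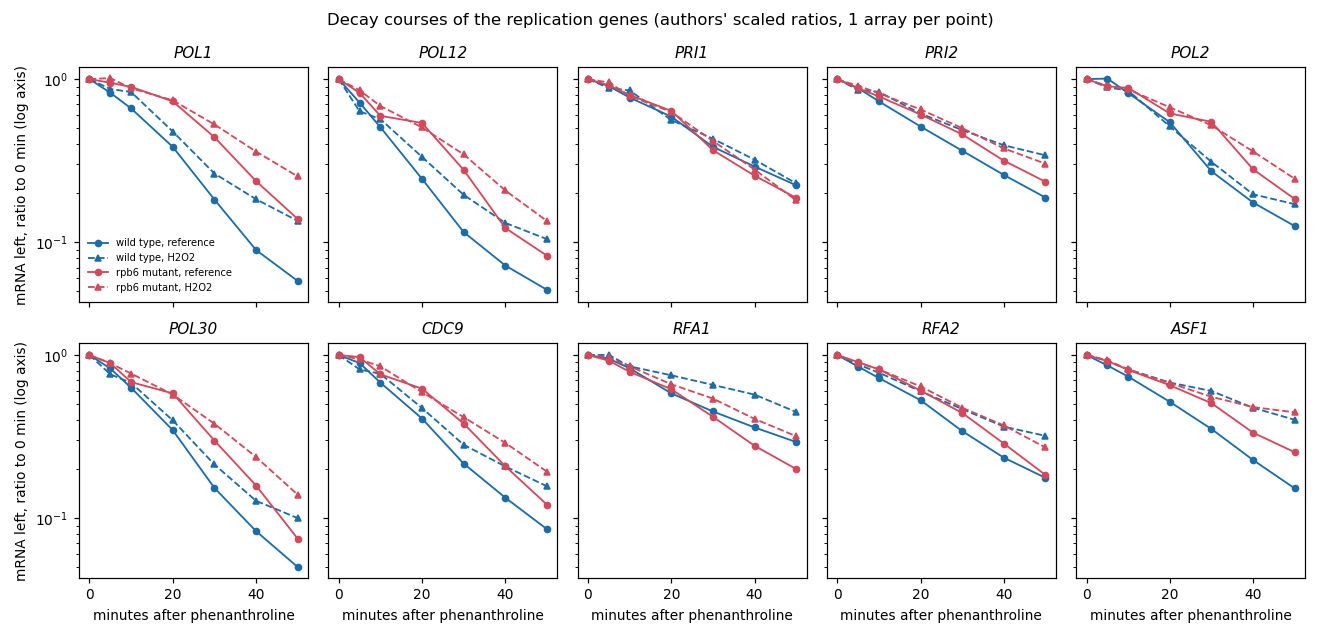
mRNA left after phenanthroline as the authors' scaled ratio to 0 min (vertical axis, log scale) against minutes after the drug (horizontal axis), for the wild type (blue) and the rpb6 mutant (red) in the reference (solid, circles) and H2O2 courses (dashed, triangles), 1 array per point. At 50 min ASF1 in the wild type was at 0.152 in the reference and 0.401 in H2O2, and POL1 at 0.0579 and 0.135.

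In H2O2 the wild type lost 8 of the 10 transcripts more slowly than in the reference course, and none faster. The contrast shares the wild type reference course with the strain contrast above. The slope difference passed for POL1, POL12, PRI2, POL30, CDC9, RFA1, RFA2 and ASF1, beside 10.3% of all probe sets (5.35% higher, 4.93% lower). All 10 differences were above 0, as were 53.1% of all tested probe sets, and their median was 0.0179 log2 per min against 0.0004 over all.

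ASF1 changed most. Its scaled ratios in the wild type read 1, 0.863, 0.737, 0.516, 0.352, 0.227 and 0.152 in the reference (0 to 50 min) and 1, 0.920, 0.817, 0.678, 0.602, 0.475 and 0.401 in H2O2, above the reference at every time after 0. The slope difference was 0.0287 ± 0.0023 (limma adjusted p = 1.33e-08), and the half-life went from 19.4 ± 0.88 to 38.1 ± 0.97 min. RFA1 went from 26.3 ± 1.8 to 44.7 ± 3.7 min, the longest half-life of the 10 in any course, with ratios of 0.293 and 0.447 at 50 min (slope difference 0.0148 ± 0.0023, adjusted p = 0.000214). RFA2 went from 19.9 ± 0.64 to 28.3 ± 1.1 min (0.0174 ± 0.0025, adjusted p = 4.86e-05).

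The primase subunits parted here. PRI2 read 1, 0.880, 0.731, 0.512, 0.364, 0.259 and 0.188 in the reference and 1, 0.860, 0.836, 0.615, 0.487, 0.393 and 0.341 in H2O2, with a half-life of 20.5 ± 0.64 and then 30.5 ± 1.2 min (slope difference 0.0172 ± 0.0017, adjusted p = 4.26e-07). PRI1 had half-lives of 22.8 ± 1.3 and 24.1 ± 1.3 min and a slope difference of 0.0020 ± 0.0032 (adjusted p = 0.794). The short-lived transcripts had large slope differences with small gains in minutes: POL1 (0.0243 ± 0.0057) went from 13.3 to 17.4 min, POL12 (0.0242 ± 0.0058) from 10.1 to 13.1 min, POL30 (0.0207 ± 0.0055) from 12.4 to 14.5 min and CDC9 (0.0184 ± 0.0043) from 14.5 to 18.0 min. POL2 had half-lives of 17.5 and 18.9 min and did not pass (0.0095 ± 0.0053, adjusted p = 0.314).

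The calls of PRI2, RFA1, RFA2 and ASF1 passed under all 13 alternatives in the wild type. Those of POL1, POL30 and CDC9 were lost without the 40 min arrays and when only 0 to 30 min were used, which left 5 genes. POL1 and POL30 were lost without the 50 min arrays, and POL12, POL30 and CDC9 without the 5 min arrays. The shares of all probe sets that passed were then 4.09% (40 min), 2.85% (0 to 30 min), 7.54% (50 min) and 4.9% (5 min). Among the listed genes 7 of the 22 other replisome genes were lost more slowly in H2O2 and 0 faster by limma (12 of the 22 at an unadjusted p under 0.05), and all 22 differences were above 0 (median 0.0070). MRC1 of the fork complex was at 0.0166 and the flap nuclease gene RAD27 at 0.0168. Over all probe sets 5.35% were lost more slowly and 4.93% faster. Of 26 origin genes 1 passed as slower, CDC45 of the helicase (0.0230), a count near that share. Of the cell cycle markers 2 of 7 G2/M genes were lost faster, SWI5 (-0.0154) and CDC20 (-0.0101), and none of the 7 M/G1 genes passed (1 at an unadjusted p under 0.05).

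In the mutant 4 of the 10 passed in the same contrast, RFA1, ASF1, RFA2 and PRI2, all lost more slowly, beside 2.73% of all probe sets (1.33% higher). RFA1 had a slope difference of 0.0138 ± 0.0023 (limma adjusted p = 0.00224) and half-lives of 22.9 ± 1.9 and 30.5 ± 2.2 min. ASF1 (0.0156 ± 0.0023, adjusted p = 0.000782) had scaled ratios of 1, 0.919, 0.811, 0.652, 0.507, 0.334 and 0.254 in the reference and 1, 0.928, 0.815, 0.673, 0.554, 0.479 and 0.445 in H2O2, the courses parting from 30 min on, and half-lives of 27.0 ± 2.1 and 38.6 ± 2.7 min. RFA2 was at 0.0111 ± 0.0025 and PRI2 at 0.0067 ± 0.0017. The other 6 differences were also above 0, from 0.0008 (PRI1) to 0.0173 (POL30), as were 47.85% of all probe sets. The median of the 10 was 0.0134 against -0.0003 over all probe sets.

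The mutant count depends on the arrays used. It was 0 without the 50 min arrays (limma, 6 at an unadjusted p under 0.05), where 0.0875% of all probe sets passed. With 0 to 30 min only it was 0 as well, but there 0 of all 5716 probe sets passed. In that setting 1 of the 10 had an unadjusted p under 0.05, with ASF1 at 0.0041, RFA2 at 0.0044 and PRI2 at 0.0040. The count was 2 without the arrays of 5, 10 or 40 min (0.42%, 0.56% and 0.332% of all) or with the mutant fitted alone (2.08%). It was 3 without those of 0 or 30 min (2.2% and 1.73%) and 5 without those of 20 min (5.49%). With the out-of-order reference arrays of 10 and 20 min exchanged it was 7, and 8.29% of all probe sets then passed.

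**Figure D4:**
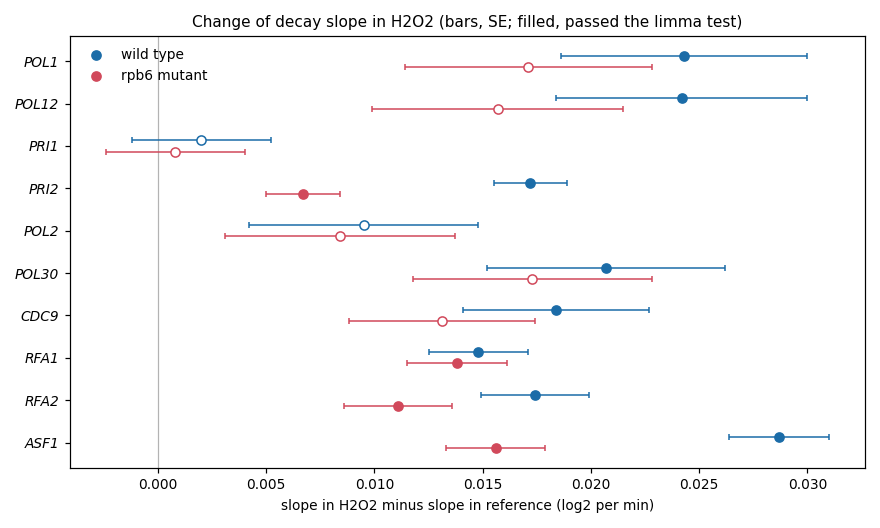
Slope in H2O2 minus slope in the reference (horizontal axis, log2 per min) for each of the 10 transcripts, wild type in blue and rpb6 mutant in red, with SE bars and filled points where the limma contrast passed. All points lie right of 0; the wild type has 8 filled points and the mutant 4, and PRI1 lies nearest to 0 in both.

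The change of slope in H2O2 differed between the strains for PRI2 alone. The strain difference of its slope change was -0.0105 ± 0.0024 (limma adjusted p = 0.0431), where 0.647% of all probe sets passed (0.56% higher, 0.0875% lower), and the call was lost with any 1 time point left out. ASF1 came next (-0.0131 ± 0.0032, adjusted p = 0.0589). All 10 strain differences were below 0 (median -0.0058). Over all probe sets the median was -0.0007 and 43.93% were above 0. Beside PRI2 and ASF1, the other 8 of the 10 were far from the threshold, RFA2 being nearest at -0.0063 ± 0.0035. These contrasts contain the reference slopes of both strains, which themselves differed for 8 of the 10 genes.

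In half-lives the median log2 change in H2O2 over the 10 genes was 0.38 in the wild type (jackknife SE over time points 0.109), against 0.035 over 4359 genes, and 0.22 in the mutant (SE 0.0655), against 0.012 over 4851 genes. Other settings gave wild type medians from 0.35 to 0.50 and mutant medians from 0.16 (0 to 30 min only) to 0.36 (a line through log2 ratios), so the medians of the strains are not shown to differ. All 10 half-lives were longer in H2O2 in each strain, beside 57.8% of the 4359 wild type genes and 53.4% of the 4851 mutant genes. The 10 share arrays and scaling factors, so they are not 10 independent readings. The change was below its SE for POL2 in wild type cells and for PRI1 in mutant cells. The order of the genes was kept in part: POL12, POL30, POL1 and CDC9 were the shortest 4 in both wild type courses, and RFA1 and ASF1 the longest in H2O2.

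**Figure D5:**
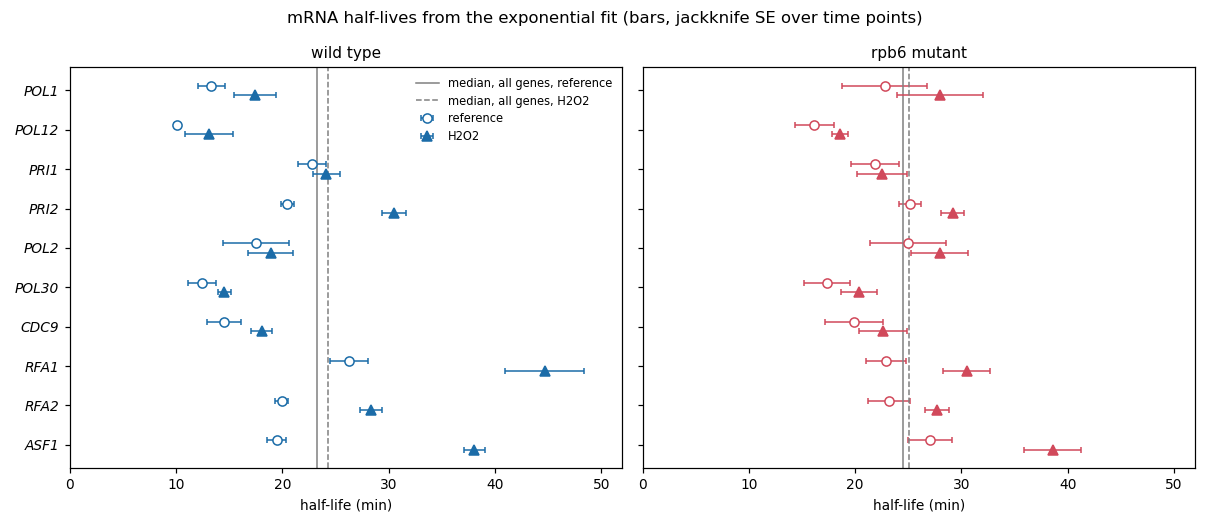
Fitted mRNA half-lives in minutes (horizontal axis) in the wild type (left) and the rpb6 mutant (right), reference as open circles and H2O2 as filled triangles, with jackknife SE bars over time points and the medians of all fitted genes as vertical lines (23.3 and 24.3 min in the wild type, 24.5 and 25.0 min in the mutant). Every triangle lies right of its circle, most of all for ASF1 and RFA1 in the wild type.

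Set side by side, abundance and stability in H2O2 did not run the same way for all 10 genes. In the wild type 4 of the 5 genes whose level fell were lost more slowly (POL1, POL12, POL30 and CDC9), and of all 1586 probe sets that fell 13.2% were lost more slowly and 3.47% faster. RFA1 and RFA2 rose and were also lost more slowly, a combination found for 27 of the 1631 probe sets that rose (1.66%), while 180 of them were lost faster. PRI2 and ASF1 were lost more slowly with no change in level that passed. In the mutant none of the 5 genes that fell passed the slope test (POL1, POL12, POL30 and CDC9 had an unadjusted p under 0.05), and all 4 that were lost more slowly had no change in level that passed.

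Over the 58 arrays, with the mean of each course removed in each strain, the genes whose profile was most like the mean profile of the 10 were MSH6 of mismatch repair (Pearson r 0.93), CTF4, which ties polymerase alpha to the helicase (0.92), CDC45 (0.91), CTF18 (0.90), ACM1 (0.89), the cohesin factor gene PDS5 (0.89), NMA111 (0.89) and SMC6 (0.89). These values are descriptions: arrays of a course share a culture and a normalization, and the decay arrays weigh most. On the 30 H2O2 and MMS arrays alone the most alike were GAS2 (0.94), PMT3 (0.93), SMC1 of cohesin (0.92), RAD5 (0.91), RCY1 (0.91), BCH2 (0.91), the condensin gene SMC2 (0.90) and RLF2 of the chromatin assembly factor (0.90). Each member against the mean of the other 9 gave r from 0.95 (CDC9) and 0.91 (POL30) down to 0.13 (RFA1 and ASF1) over 58 arrays. On the 30 stress arrays it gave 0.85 for CDC9, -0.36 for POL2 and -0.48 for ASF1. RFA1 and RFA2 followed each other (0.83 and 0.90), as did POL1 and POL2 (0.87 and 0.88), whereas POL1 and PRI2 were at 0.03 and -0.36.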

How the data were processed

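Both strains were profiled on Affymetrix Yeast 2.0 arrays, 58 in all, from RNA primed on its poly(A) tail. The authors deposited log2 levels made by RMA, in 3 sets normalized apart, and fold-change files whose decay columns hold linear ratios to 0 min, rescaled by the authors to a fixed mean decay. Levels were used as deposited, and the ratios only for half-lives and decay plots. Log2 changes in the stress columns of those files differed from the levels' own differences by at most 0.000355 and were not used further. Versions of the authors' tools are not given in the sources used here.

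Probe sets were named by the platform annotation: of 10928, the 5716 for S. cerevisiae were tested, 5498 with 1 gene symbol and 218 with none listed. Tests used limma 3.58.1 in R 4.3.3 with Benjamini-Hochberg adjustment over the 5716 and a threshold of 0.05. Untreated strains were compared with array set as a block, which pairs arrays of 1 set: deviations of the 2 strains from their group means correlated at 0.661, 0.818 and 0.737 within the 3 sets. Stress courses were fitted as natural splines of time with 3 degrees of freedom per strain (F test; the value is the largest fitted change with its SE), the strain difference as their interaction. Decay used the slopes of 4 courses in 1 fit. Half-lives were fitted with scipy 1.17.1 (Python 3.11.15, pandas 2.3.3, numpy 2.4.6) and kept at R2 above 0.9. Figures used matplotlib 3.10.9. Some of the untreated, H2O2 and decay tests and the half-life fit were run on simulated data with independent noise. The MMS tests and effects shared by an array or a culture were not simulated.

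The members and the lists of other genes were chosen with earlier results of these data known. All 10 members were described. Of each other list, genes that passed with the largest changes were named, at most 3 a comparison. Alternatives were the spline's degrees of freedom, median centring, a background filter, each time point or array set left out, a strain fitted alone, 0 to 30 min only and the handling of 2 mutant reference arrays. Fitting a decay strain alone, the 2 arrays in the wild type contrast and leaving out the 0 min H2O2 arrays were added after seeing the data. No promoter or protein sequences were used here.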

Additional observations from a re-analysis of the deposited data

Results flagged for a closer look

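The strain difference of a response was itself tested by limma in H2O2, in MMS and for the slope change. Of the 10 genes 0, 1 and 1 passed in these tests, beside 1.24%, 3.32% and 0.647% of all probe sets. RFA2 rose more in the mutant than in the other strain in MMS, by 0.6299 on the log2 scale at 140 min (SE 0.104, adjusted p = 0.0345). The strains were level up to 40 min, at 12.78 and 12.89, and apart at 180 min, at 12.80 and 13.29. PRI2 had a strain difference of -0.0105 log2 per min in its slope change in H2O2 (SE 0.0024, adjusted p = 0.0431): H2O2 moved its slope by 0.0172 in wild type cells and by 0.0067 in the mutant. Each rests on 1 culture per course, and both calls were lost in most alternatives.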

How the results depend on the processing

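Over the 10 genes and all tests, 1083 of 1190 alternative values kept their side of the threshold, 99 no longer passed, 8 newly passed, and 0 reversed a call. Among the 1083 were 26 with the other sign, which passed in neither setting. The wild type count of 7 in H2O2 was 6 or 7 in the alternatives, that of 10 in MMS was 7 with 2 degrees of freedom and 8 to 10 with a time point left out, and the mutant's 10 in MMS was 9 or 10. Counts that moved by more than 1.5 times were these. In mutant H2O2, 2 genes passed instead of 5 without the 0 min arrays, and 0 to 4 with 1 later time point left out. The strain difference in MMS went from 1 gene to 0 with 2 degrees of freedom and to 0 or 1 with a time point left out. For slower loss in H2O2, the wild type count of 8 became 5 with 0 to 30 min only and 5 to 8 with a time point left out. The mutant count of 4 became 0 with 0 to 30 min only, where 0 of all probe sets passed. It became 7 with the 10 and 20 min reference arrays exchanged, 2 with the strain fitted alone and 0 to 5 with a time point left out. The strain difference of the slope change went from 1 to 0 with median-centred arrays and to 0 with any time point left out. The reference strain difference of 8 became 4 to 8. Median log2 half-life changes ranged from 0.3666 to 0.5015 (wild type) and from 0.2076 to 0.2914 (mutant) with a time point left out, and the mutant's was 0.3578 with a line through log2 ratios and 0.1573 with 0 to 30 min only. The causes were not tested. Without the replicate block, untreated strains gave 0 of the 10 genes by limma (0 at an unadjusted p under 0.05) and 1 of all probe sets, against 109 with it. Counts over all probe sets also moved with the settings: 71 for the H2O2 strain difference (3 to 254), 190 for MMS (5 to 195), 1298 for mutant H2O2 (350 to 1663), 588 for wild type decay (163 to 706) and 156 for mutant decay (0 to 474). Arrays were 1 per time point, and their number limits the precision.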
